A study of Homo sapiens with 50 samples.

Results

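H1299 cells hit directly by 4He ions were compared with unirradiated H1299 cells, on the arrays labeled direct bystander positive (DBP) and control (CTL). The comparison took the 5 DBP and the 5 CTL arrays of the parental line by their labels and paired them by replicate number, which gave 10 of the 50 arrays of the series. H1299 is a human non-small cell lung carcinoma line that makes no p53 protein and has its inherent level of RAD9, a subunit of the ring-shaped 9-1-1 clamp that helps ATR, a damage-response kinase, to signal. The DBP cells received 1 Gy at a linear energy transfer of 125 keV per micron, as the labels give it, and the CTL cells were sham irradiated. RNA from both was taken at 4 h.

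In the series, each irradiated dish was grown facing a bystander dish that the ions did not reach. DBP were direct dishes whose facing bystander dish (BP) scored positive for micronuclei, which are small bodies of chromatin left outside the nucleus after division, and DBN were direct dishes whose bystander dish (BN) scored negative. All groups were chosen from a larger set of dishes by their micronucleus scores, low in CTL and high in both direct groups, so that the 5 DBP dishes are not a random sample of irradiated dishes. The same groups were made with H1299shRAD9 cells, which carry a short hairpin RNA against RAD9 mRNA.

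Cells enter mitosis when cyclin B with CDK1 becomes active. BORA, a cofactor, lets the kinase Aurora A (AURKA) activate the kinase PLK1, which in turn promotes activation of cyclin B with CDK1. Messenger RNAs of this circuit and of the spindle accumulate in G2 and mitosis, largely through promoters that hold a cell cycle genes homology region (CHR) and CCAAT boxes. DNA double strand breaks, which densely ionizing particles produce along their track, stop cells before mitosis through the ATM and ATR kinases. Loss of p53 removes the arm of that response that runs through CDKN1A but not the arm that holds CDK1 inactive.

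Promoters are shown for the 4 genes called below that matched one, and for PLK1, which was not called, with these elements marked where present. Each is the 140 bases just before the annotated start site, in RefSeq on GRCh38.p14, 5′ to 3′ on the strand of the gene. Capitals mark a CHR (TTTGAA or TTCGAA) or a CCAAT box (ATTGG where it lies on the opposite strand).

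BORA (chr13:72727783-72727922, strand +): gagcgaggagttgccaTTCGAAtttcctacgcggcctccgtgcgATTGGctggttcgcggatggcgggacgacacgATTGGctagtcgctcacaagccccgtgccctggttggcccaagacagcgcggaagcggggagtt
PSRC1 (chr1:109283146-109283285, strand -): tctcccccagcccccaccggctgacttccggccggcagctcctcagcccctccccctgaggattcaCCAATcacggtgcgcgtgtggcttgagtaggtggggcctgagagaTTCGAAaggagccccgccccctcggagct
CENPA (chr2:26785916-26786055, strand +): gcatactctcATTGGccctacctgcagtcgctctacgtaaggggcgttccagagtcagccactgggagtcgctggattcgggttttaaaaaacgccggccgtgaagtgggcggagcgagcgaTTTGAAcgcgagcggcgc
KIF20A (chr5:138178972-138179111, strand +): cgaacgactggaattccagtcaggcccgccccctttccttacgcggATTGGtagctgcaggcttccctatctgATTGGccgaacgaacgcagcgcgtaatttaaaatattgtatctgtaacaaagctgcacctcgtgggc
PLK1 (chr16:23678749-23678888, strand +): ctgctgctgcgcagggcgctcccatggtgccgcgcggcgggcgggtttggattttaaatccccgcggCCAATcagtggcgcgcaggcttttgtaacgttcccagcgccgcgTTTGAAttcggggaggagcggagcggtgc

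Of the 7 features called below, 4 matched a promoter in the table, and AURKA and FAM83D did not. A CHR in either spelling, searched on both strands over 300 bases from 250 before to 50 after the start, was found in 3 of these 4 and in 16.4% of all 35116 promoters. CCAAT was found in all 4 and in 34.6% of all promoters. For the spindle and kinetochore genes described below, 35 of 47 matched promoters held a CHR (74.5%) and 37 held CCAAT (78.7%). An E2F motif (TTCGCGC or TTGGCGC or TTCCCGC) was found in 14.9% of them and in 11% of all promoters. For the G2/M phase genes the shares for CHR, CCAAT and E2F were 73.3%, 68.9% and 22.2%. For the mitotic entry regulators they were 52.6%, 63.2% and 26.3%. A match is only a run of letters in the window.

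The arrays were Agilent single-color arrays. Of 34127 probes, between 62.2% and 70.0% were well above background on the CTL arrays and between 63.3% and 68.9% on the DBP arrays. Median processed intensity was 245 to 514 in CTL and 196 to 289 in DBP, with the highest value in CTL replicate 3. Of 9 mesenchymal carcinoma markers 8, VIM, CDH2, AXL and ZEB1 among them, were well above background on all 10 arrays, and FN1 was on none. Of 13 lung epithelial markers 10 were, KRT8 and KRT18 among them, while CDH1 and SFTPB were on none and EPCAM on 1. Of the other cell types, 7 of 9 leukocyte, 2 of 7 endothelial and 2 of 9 fibroblast markers were well above background on all 10 arrays, and the mean level of the leukocyte list overlapped between CTL (0.60 to 1.59) and DBP (0.66 to 1.59). RAD9A was similar in both groups, at 4.01 ± 0.13 in CTL and 4.13 ± 0.32 in DBP (SD, n = 5).

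Levels are given as log2 of the processed intensity minus the median of the array, so that a level of one probe cannot be set against that of another. A feature was called when limma, paired by replicate, gave p under 0.006 and a Benjamini-Hochberg false discovery rate (FDR) under 10%. In DBP 7 of 12206 tested features were called (0.0573%), and all 7 fell, to between 40.0% and 49.0% of the CTL level. They were BORA, AURKA, FAM83D, PSRC1, CENPA, KIF20A and a probe that the array annotation assigns to no gene. All 6 named genes act in mitosis. No feature was called as higher, although 233 were higher at an unadjusted p under 0.05, against 531 that were lower. In each of the 7 the 5 DBP arrays lay below all 5 CTL arrays, a separation seen in 0.692% of 20100 features above background. The 7 were chosen on these same arrays, so their separation is a description. The paper, with its own filter and a random-variance paired test, reports that no gene changed significantly in irradiated H1299 cells.

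The FDR of the 7 calls was 0.0959 for each, close to the limit. Without pair 1, 2 features were called, the unnamed probe and PIF1, and without pair 2, 3, 4 or 5 none was. Each of the 7 stayed lower by at least 0.86 on the log2 scale under the 13 alternatives for which their changes were computed. These leave out the slide blocks, the background filters and the random-variance test. Dropping the replicate block or fitting all 5 H1299 groups together could not move the changes, as the design is balanced. The 0.86 came with normexp background correction, where the median of all features was -0.20. With 75th percentile scaling in place of the median none was called, and with all 5 H1299 groups in one fit 28 were, 27 of them lower. The p-values set the mean DBP minus CTL difference against its variation between pairs, with information on variance shared across features. The pairs are dishes that the study describes as independent samples.

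BORA, the cofactor of Aurora A, gave the smallest p. Its feature lies at chr13:73329356-73329415 (hg19). It read 3.78, 4.19, 3.76, 3.77 and 3.85 in CTL replicates 1 to 5, and 2.48, 3.14, 2.41, 2.72 and 2.60 in DBP. Replicate 2 was the highest in both groups. BORA fell by 1.20 ± 0.15 (log2, SE), to 43.5% of CTL (FDR 0.0959, limma).

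AURKA, the kinase of centrosomes and of mitotic entry, was measured at chr20:54945120-54945179. The CTL values were 7.49, 6.89, 7.19, 7.15 and 7.05, and the DBP values 5.82, 5.74, 6.19, 6.05 and 6.05. Every DBP array lay below the lowest CTL array, and replicate 1 gave the largest difference. AURKA fell by 1.18 ± 0.16, to 44.0% of CTL. A feature for the AURKA pseudogene AURKAPS1, which shares sequence with AURKA, had a log2 change of -0.94 and was not called (FDR 0.141). How far either probe also reads the other transcript was not tested.

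FAM83D recruits casein kinase 1 to the spindle, and its feature lies at chr20:37581326-37581385. It read 6.06, 5.47, 5.97, 5.89 and 5.95 in CTL, and 4.40, 4.70, 4.64, 4.82 and 4.86 in DBP. CTL replicate 2 was the lowest of the controls and gave the smallest difference of the 5 pairs. FAM83D fell by 1.19 ± 0.17.

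PSRC1, a microtubule-associated protein of the spindle, was measured at chr1:109822459-109822518. It read 5.30, 5.15, 5.39, 5.20 and 5.40 in CTL, and 4.47, 4.33, 3.96, 4.00 and 4.02 in DBP. DBP replicates 1 and 2 stayed above the other 3 DBP arrays. PSRC1 fell by 1.13 ± 0.17.

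CENPA, the histone H3 variant that marks centromeres, was measured at chr2:27016914-27016973. It read 5.33, 5.45, 5.49, 5.50 and 5.33 in CTL, and 4.25, 4.76, 4.30, 4.33 and 4.25 in DBP. The controls lay close together, and DBP replicate 2 stood above the other DBP arrays. CENPA fell by 1.04 ± 0.15.

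KIF20A is a kinesin of the central spindle needed for cytokinesis, and its feature spans chr5:137522081-137522804. It read 6.07, 5.13, 5.48, 5.44 and 5.26 in CTL, and 4.91, 3.92, 4.50, 4.50 and 4.41 in DBP. Replicate 1 was the highest and replicate 2 the lowest in both groups, so that the groups nearly touched while the pairs differed by similar amounts. KIF20A fell by 1.03 ± 0.15.

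The unnamed probe, A_33_P3404221, lies at chr1:68944584-68944643, 3548 bases from the nearest feature of DEPDC1. It read 0.78, 0.68, 0.65, 0.47 and 0.60 in CTL, and 0.00, -0.74, -1.17, -0.85 and -0.69 in DBP. DBP replicate 1 was closest to the controls. The probe fell by 1.32 ± 0.18. With normexp background correction its change was -0.86, the smallest of the 7, while the other 6 lay between -1.50 and -1.31.

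**Figure D1:**
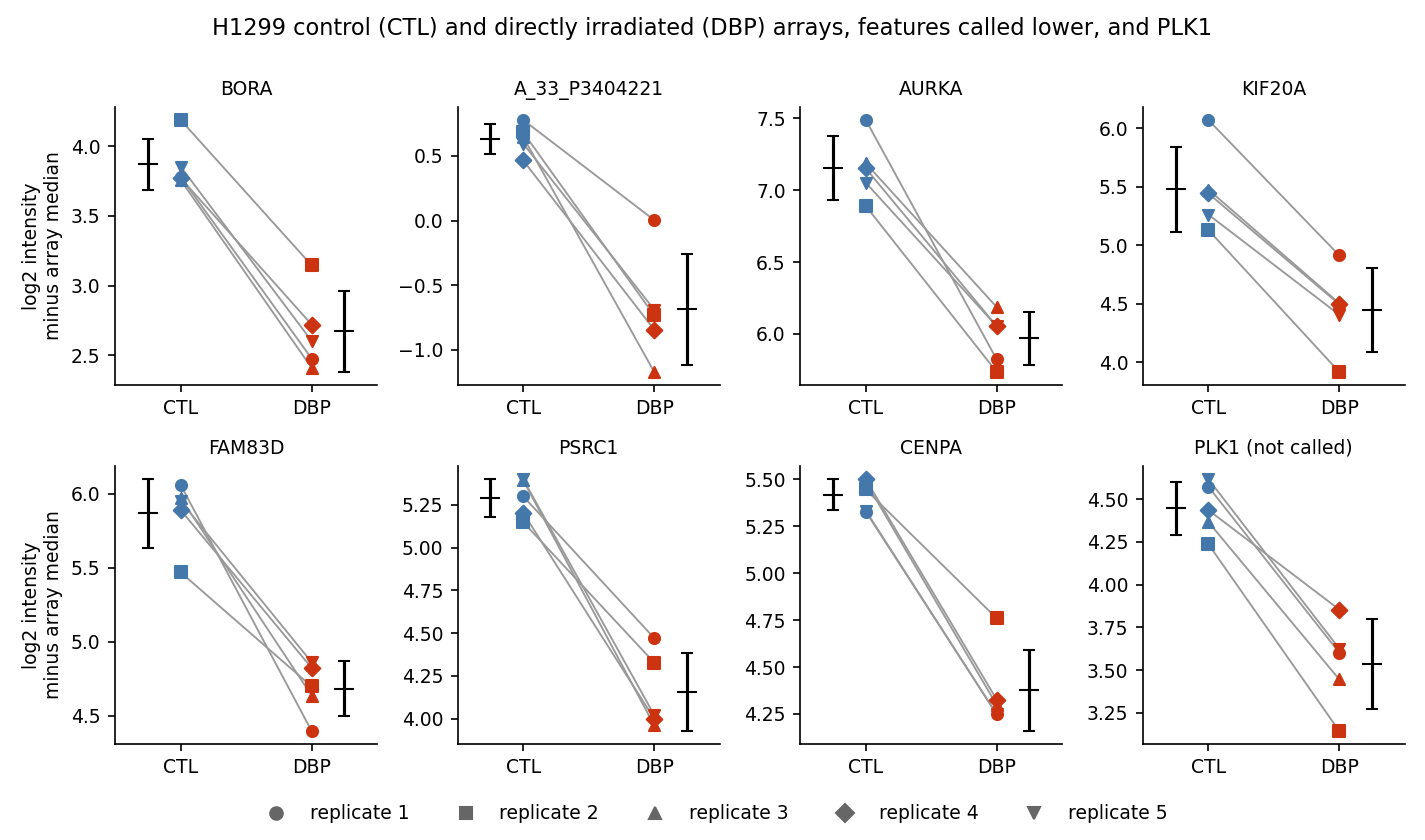
Levels of the 7 called features and of PLK1 on the 5 CTL (blue) and 5 DBP (red) arrays, as log2 intensity minus the array median. Lines join arrays of one replicate number, and bars give the mean ± SD. All 5 pairs slope downward in every panel, and PLK1, at -0.91, was not called.

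Of the 123 features with an unadjusted p under 0.006, 100 were lower in DBP and 23 higher. Features of genes in the 3 mitotic lists (G2/M phase genes, mitotic entry regulators, spindle and kinetochore genes) made up 41 of the 100 lower ones, for 34 genes, and 0 of the 23 higher ones. They were 79 of all 12206 tested features (0.647%). These lists, which hold CCNF, PIF1 and DEPDC1, were drawn up with earlier results of these data known, so these shares are a description. Of the 100, 97 were lower in all 5 pairs, which their choice by the paired p on these arrays favors.

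The largest of these falls outside the calls belonged to CCNF, PIF1, CKAP2 and FAM72D. CCNF (cyclin F), the substrate receptor of an SCF ubiquitin ligase that acts in G2, read 1.57, 1.40, 1.51, 2.11 and 2.05 in CTL and -0.40, -2.93, 0.52, 0.94 and 0.68 in DBP. Its mean change of -1.97 ± 0.42 (FDR 0.303) rests in part on DBP replicate 2, and was -1.38 without pair 2. CCNF was well above background on 4 of the 5 DBP arrays. PIF1, a DNA helicase of telomeres and replication forks, read 5.00, 5.26, 4.77, 4.82 and 4.89 in CTL and 4.67, 3.67, 3.08, 3.18 and 3.36 in DBP. Here DBP replicate 1 nearly reached the controls, and without pair 1 PIF1 was called (log2 change -1.61, FDR 0.0324), against -1.36 and FDR 0.141 with all pairs. CKAP2, a spindle microtubule protein, differed by -1.30 at the probe in this group and by -0.83 at its brighter probe. FAM72D, one of a family of near-identical genes, differed by -1.23 (FDR 0.208).

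PLK1, measured by 2 features, was not called at either. The brighter one, at chr16:23700970-23701212, read 4.57, 4.24, 4.37, 4.44 and 4.62 in CTL and 3.60, 3.14, 3.45, 3.85 and 3.63 in DBP. The groups did not overlap, and the log2 change was -0.91 ± 0.15 (FDR 0.141). The other feature gave -1.17 (FDR 0.141). For CCNB1 (cyclin B1) the brighter feature gave -0.51 (FDR 0.747) and the other -0.97 (FDR 0.181), and for DEPDC1, which is expressed in mitosis, the values were -0.56 and -1.11. In both genes the size of the change depended on the probe, and the direction did not.

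Changes in 3 other genes of the circuit were small. CDK1, the catalytic partner of cyclin B, was at -0.16 ± 0.18, with 2 pairs lower and 3 higher. FOXM1, a transcription factor of G2/M genes, was at -0.22 ± 0.12, lower in 5 of 5 pairs, and CDC25B, a phosphatase that activates CDK1, at -0.16 ± 0.14. These 3 genes varied too little over the 50 arrays to enter the test, and their values come from the fit of all 20100 features above background.

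**Figure D2:**
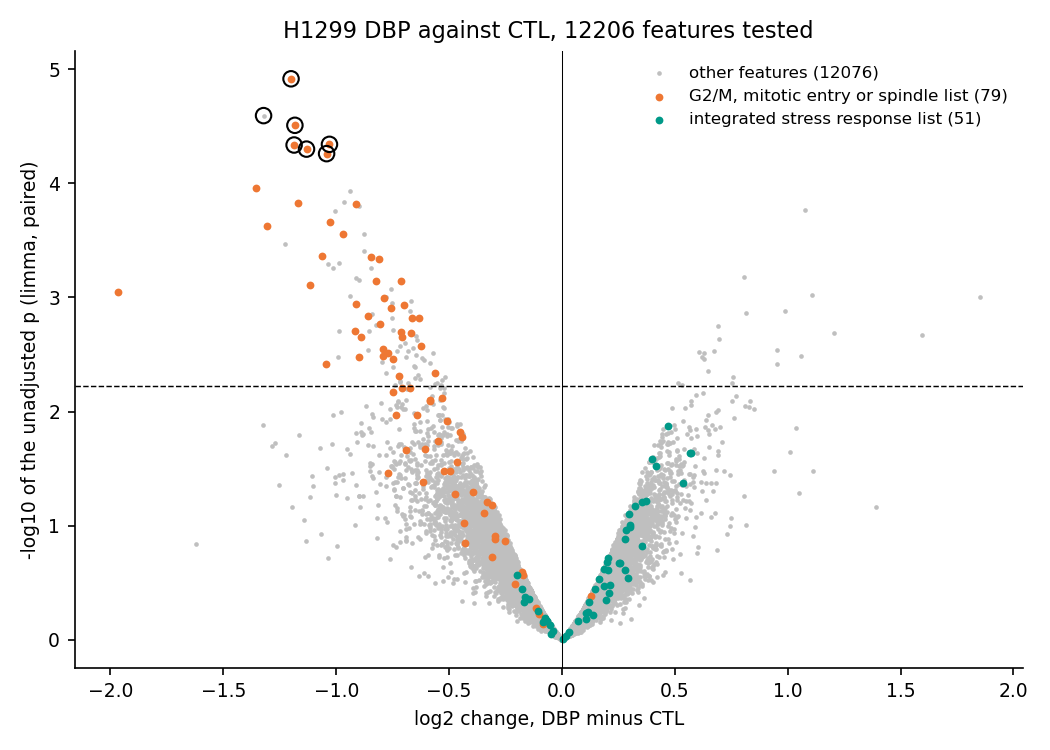
Log2 change in DBP against the unadjusted p of the paired limma fit, for 12206 features. Orange points are features of the 3 mitotic lists, green points those of the integrated stress response list, black rings the 7 calls, and the dashed line the limit on the unadjusted value. Orange points gather at the upper left, and no green point lies above the line.

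Gene lists were described with 1 feature for each gene, the brightest, in the fit of all 20100 features above background. For single genes, the change and SE are those of the fit of 12206 features where it held the gene, and otherwise of the wider one. Across those features the median change was 0.02, with 3.71% lower and 1.86% higher at an unadjusted p under 0.05, and 4.78% lower and 4.17% higher in all 5 pairs. Spindle and kinetochore genes had a median change of -0.50, and all 52 were below 0, as were 45.5% of all 20100 features. Of the 52, 38 were lower at p under 0.05, 37 were lower in all 5 pairs, and 4 were called. As the lists were chosen with earlier results of these data known, such counts are a description. Besides the calls, the list included CDCA8 (-0.81), a subunit of the chromosomal passenger complex, and CENPE (-0.85), a kinesin of kinetochores.

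G2/M phase genes had a median of -0.51. Of 54 genes 52 were below 0, 37 were lower at p under 0.05, 38 were lower in all 5 pairs, and 3 were called. MKI67, the proliferation marker Ki-67, was at -1.03 at its brightest feature (FDR 0.166). The median was -0.79, -0.31, -0.48, -0.40 and -0.44 in pairs 1 to 5, beside medians of all features between -0.09 and 0.22, so that every pair showed it and pair 1 most.

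Among 24 mitotic entry regulators the median was -0.43. BORA and AURKA were called, and 11 genes were lower at p under 0.05. WEE1, the kinase that inhibits CDK1, was at -0.66 and CCNA2 (cyclin A2) at -0.75, and neither was called. The list thus held lower values for activators and for an inhibitor of CDK1 alike.

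S phase genes had a median of -0.05, and 1 of 43 was lower at p under 0.05. In pair 1 their median was -0.52, and in the other pairs -0.05 to 0.25. The difference from the mitotic lists was not tested. That gene was RRM2, a subunit of ribonucleotide reductase, at -1.16 ± 0.40. It read 2.93 and 1.77 in DBP replicates 1 and 2 and 5.01 to 5.16 in the other 3, against 4.66 to 5.47 in CTL. WDR76 and RAD51AP1, next in this list, were at -0.39 and -0.46 with 3 of 5 pairs lower. WDR76 was at -0.08 without pair 2, and RAD51AP1 at -0.05 without pair 1. Replication-dependent histone genes had a median of -0.09 with 2 of 54 lower at p under 0.05, HIST1H2BF (-0.61) and HIST1H3D (-0.43), and HIST1H2AL was at -0.43.

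**Figure D3:**
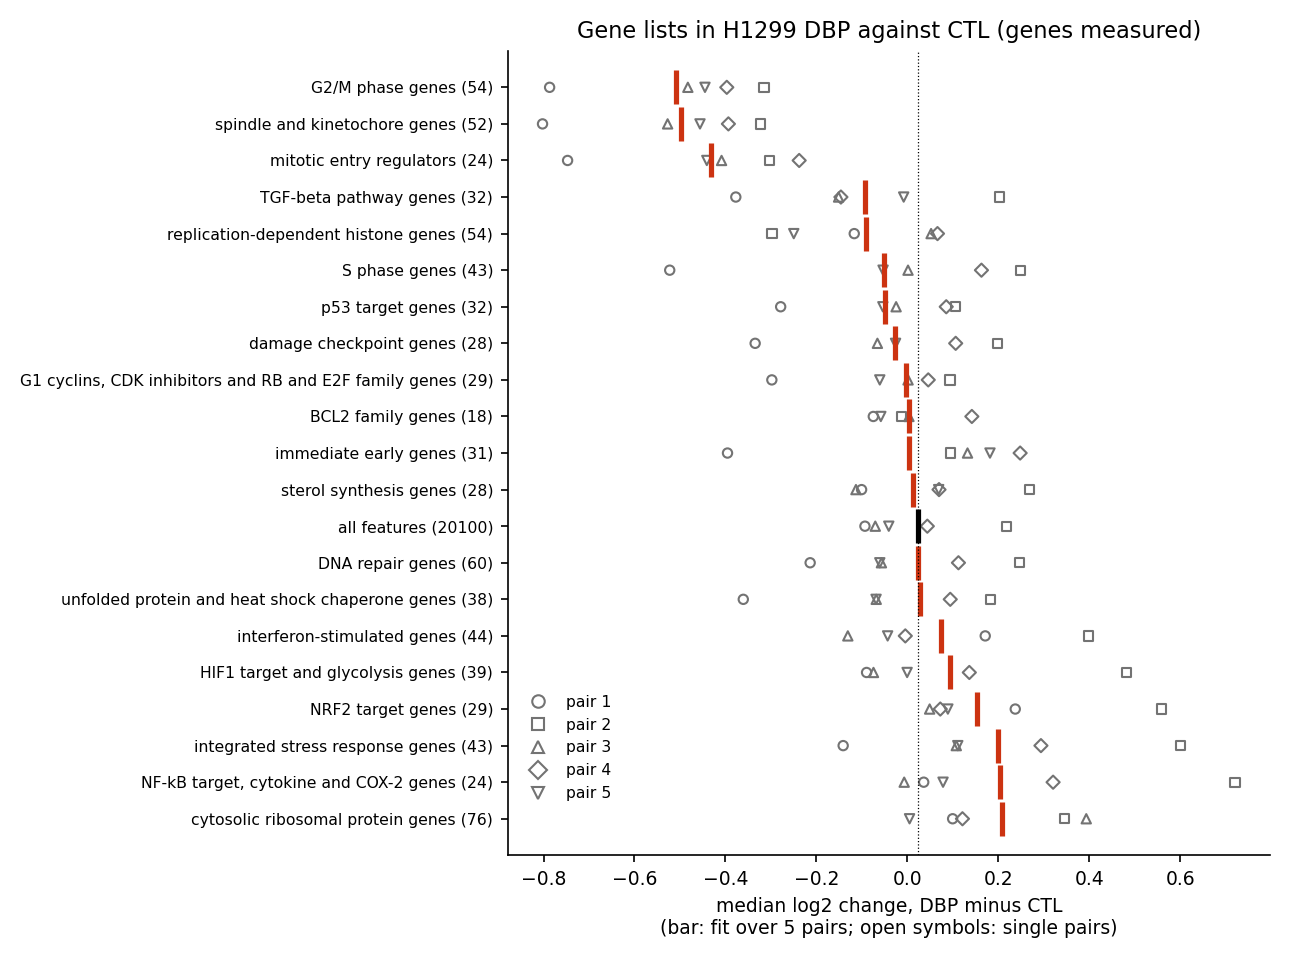
Median log2 change, DBP minus CTL, of 20 gene lists and of all 20100 features above background, with the number of genes or features in parentheses. Bars are the fit over 5 pairs, open symbols the single pairs, and the dotted line the median of all features. The 3 mitotic lists lie left of it in all 5 pairs, and the other 17 lists have fitted medians between -0.09 and 0.21.

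DBP replicates 1 and 2 had the lowest 5′ signal relative to 3′ signal. A 5′ to 3′ index, taken per array from 2507 genes as the middle value of their 5′-most level less their 3′-most level, was -1.50 and -1.67 on these arrays, against -1.30 to -1.21 on the other DBP arrays and -1.38 to -1.20 on the CTL arrays. A lower index means less signal far from the 3′ end. Whether it reflects RNA quality was not tested, and the paper hybridized only RNA above a set integrity number. Pairs 1 and 2 also set the levels of integrated stress response genes, the ATF4 targets that supply amino acids and transfer RNA synthetases. The mean of this list, relative to the mean of the 5 controls, was 0.94 and 1.05 in CTL replicates 1 and 2 and -0.69 to -0.65 in the other controls. In DBP it was 0.82 and 1.52 in replicates 1 and 2 and -0.57 to -0.39 in the other arrays. The split thus ran between replicates and not between CTL and DBP. Without pairs 1 and 2 the G2/M median was -0.41, with 42 of 54 genes lower at p under 0.05, and the spindle median -0.43, with 42 of 52. In that fit 4.91% of all features were lower at p under 0.05, against 3.71% with all pairs, and 1 feature, PIF1, was called. With the index as a covariate these medians were -0.51 and -0.50, and none was called. The median of mitotic entry regulators moved further, from -0.43 to -0.34 without pairs 1 and 2 and to -0.29 with the index. The part of the index in single values was not tested beyond this.

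**Figure D4:**
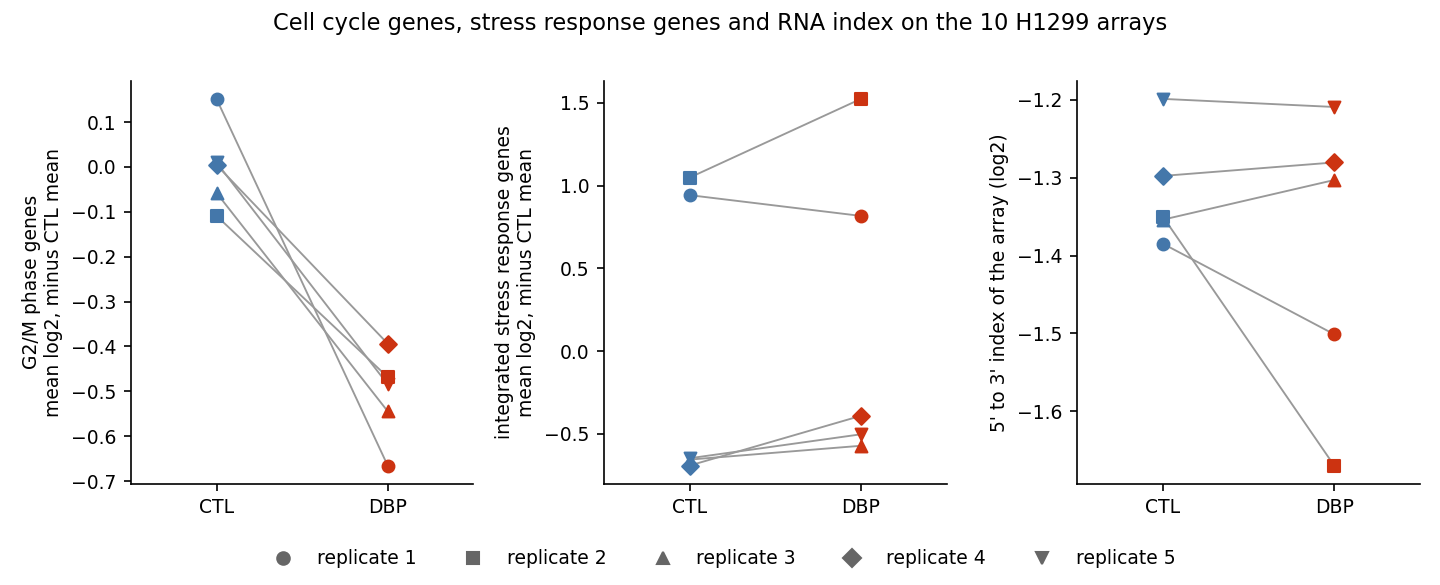
Mean level of G2/M phase genes (left) and of integrated stress response genes (middle), each minus the mean of the 5 controls, and the 5′ to 3′ index (right), on the 10 arrays. Lines join arrays of one replicate number. G2/M genes were lower in DBP in all 5 pairs, stress response genes were high in replicates 1 and 2 of both groups, and the index was lowest in DBP replicates 1 and 2.

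Within pairs, integrated stress response genes had a median of 0.20. Of 43 genes 9 were higher at p under 0.05 and none was called. That count was 3 with the index as a covariate, where the median was 0.09, 3 without pair 4, and 0 without the replicate block. Of all features 1.41%, 1.76% and 0.85% were higher in those fits, in that order, against 1.86% in the main fit. Without pair 2 the median was 0.07. ASNS, asparagine synthetase, was at 0.47 ± 0.16, JDP2, an AP-1 repressor, at 0.40 ± 0.15, and NUPR1, a stress-induced chromatin protein, at 0.57 ± 0.21 (FDR 0.747 for each). CHAC1, which degrades glutathione, was at 0.29 ± 0.26, DDIT3 (CHOP) at -0.17 ± 0.22, and ATF3 at 0.00 ± 0.20. The median was -0.14 in pair 1 and 0.60 in pair 2.

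Immediate early genes, which growth factors and stress switch on within minutes, held the rise nearest to a call. NR4A1, an orphan nuclear receptor, read -0.21, -0.21, -0.11, -0.51 and -0.66 in CTL and 0.72, 1.51, 0.54, 0.68 and 0.25 in DBP. All 5 DBP arrays lay above the controls, which 0.244% of all features did, and the log2 change was 1.08 ± 0.18 (FDR 0.141). The gene was picked by its p on these same arrays. FOSB, an AP-1 subunit, was at 0.53 ± 0.15 (FDR 0.581) without overlap, and NR4A3 at 0.45 ± 0.15. EGR1 was at 0.42 ± 0.22 and FOS at -0.04 ± 0.17. The median of the 31 genes was 0.00 with 5 higher at p under 0.05, and without pairs 1 and 2 it was 0.21 with 11 higher. Of all features 1.86% were higher with all pairs, and 2.88% without pairs 1 and 2.

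Of 41 NF-kB target and cytokine genes 24 were measured, with a median of 0.20. Of these 6 were higher at p under 0.05 and none was called. The median was 0.72 in pair 2 and between -0.01 and 0.32 in the other pairs. Without pair 2 it was 0.07. With the 5′ to 3′ index as a covariate it was 0.10, with 3 genes higher, where 1.41% of all features were. RELB, a subunit of NF-kB, read 7.94, 7.74, 7.75, 7.47 and 7.65 in CTL and 8.51, 9.25, 8.30, 8.32 and 8.23 in DBP. The groups did not overlap, and its change was 0.82 ± 0.18 (FDR 0.339). LIF, a cytokine, was at 0.57 ± 0.18, BIRC3, an inhibitor of apoptosis, at 0.65 ± 0.21, and the collagenase MMP1 at 0.65 ± 0.22. PTGS2, which encodes COX-2, was not above background often enough to be measured. In NRF2 targets, which meet oxidative stress, HMOX1 (heme oxygenase 1) was at 0.69 ± 0.16 (FDR 0.383), higher in 5 of 5 pairs, while SLC7A11, a cystine transporter, was at 0.54 ± 0.23 and MAFG at 0.40 ± 0.18. The 29 genes had a median of 0.15, and of 0.09 with the index as a covariate.

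Of genes that p53 controls in other cells, 32 were measured in this p53-null line. Their median was -0.05 and none was called, where calls were 0.0573% of all tested features. At p under 0.05, 3 were higher and 2 lower (9.4% and 6.25%), against 1.86% and 3.71% of all features. In all 5 pairs 4 were higher and 1 lower (12.5% and 3.1%), against 4.17% and 4.78%. GDF15, a secreted stress cytokine, was at 0.76 ± 0.21 (FDR 0.552), but its level ranged from 2.94 to 7.42 in CTL and from 3.21 to 8.70 in DBP, highest in replicate 2 of both. TP53INP1 was at -0.76 ± 0.25 and the kinase PLK3 at 0.47 ± 0.18. CDKN1A (p21), the CDK inhibitor, was at 0.25 ± 0.18 and MDM2, the ubiquitin ligase of p53, at -0.16 ± 0.15 at its brightest feature. Another MDM2 feature went the other way, at 0.74 ± 0.29 and higher in 5 of 5 pairs, by 1.39 and 1.97 in pairs 1 and 2 and by 0.04 to 0.23 in the others. Among G1 regulators the inhibitors CDKN2C (p18) and CDKN2D (p19) were at -0.75 ± 0.18 and -0.44 ± 0.17, CDKN1B (p27) at -0.36 ± 0.15, and CDKN3, a phosphatase of CDKs, at -0.38 ± 0.14. None was called, and the median of the 29 genes was 0.00.

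Damage checkpoint genes (28, median -0.03) and DNA repair genes (60, median 0.02) each held 1 gene that was lower at p under 0.05, and the repair list 1, NEIL1, that was higher. The lower ones were H2AFX, the histone H2AX (-0.34 ± 0.16), and NEIL3, a DNA glycosylase (-0.78 ± 0.21, FDR 0.532). NEIL1 was at 0.48 ± 0.22 and LIG4, the ligase of end joining, at -0.58 ± 0.32. FAM175A, a BRCA1 partner, was at 0.37 ± 0.17 and HUS1B, a paralog of a RAD9 partner, at -0.46 ± 0.24. ATM was at 0.17 ± 0.14, CHEK1 at -0.10 ± 0.17 and SMC1A, a cohesin subunit, at -0.16 ± 0.28.

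TGF-beta pathway genes had a median of -0.09, and 7 of 32 were lower at p under 0.05. ID3, an inhibitor of DNA-binding factors that TGF-beta family ligands induce, read 5.40, 4.96, 4.63, 4.44 and 4.90 in CTL and 4.28, 3.62, 3.85, 3.71 and 4.05 in DBP. The groups did not overlap, and the change was -0.96 ± 0.16 (FDR 0.141). ID2 was at -0.53 ± 0.17 and the ligand TGFB2 at -0.88 ± 0.17 (FDR 0.228), lower in all 5 pairs. Of the BCL2 family, the death activator BCL2L11 (BIM) was at -0.57 ± 0.17, HRK at 0.34 ± 0.15 and BCL2L1 (BCL-XL) at -0.45 ± 0.22.

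The remaining lists held no call. In HIF1 targets and glycolysis genes (median 0.09) VEGFA was at 0.30 ± 0.17, ALDOA at 0.34 ± 0.18 and ANGPTL4 at 0.37 ± 0.21. In interferon-stimulated genes (0.07) IFIT1 was at -0.54 ± 0.18, DTX3L at -0.31 ± 0.17 and ISG20 at 0.38 ± 0.20. In chaperone genes (0.03) AHSA1 was at -0.46 ± 0.22, HYOU1 at -0.38 ± 0.20 and BAG3 at -0.25 ± 0.15, and in sterol synthesis genes (0.01) SC5DL was at -0.54 ± 0.28, HSD17B7 at -0.34 ± 0.17 and FASN at 0.27 ± 0.16. Cytosolic ribosomal protein genes had the highest median, 0.21, with 28 of 76 higher in all 5 pairs. RPS10 and RPS15 were both at 0.34. That median was 0.02 with quantile normalization. With normexp background correction the median of all features shifted to -0.20, and the ribosomal and integrated stress response medians were -0.13 and -0.12, below 0 but above that shift. The transcription factor SP1 was at -0.07 ± 0.14.

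The 8 largest rises in all 5 pairs with p under 0.006 were NR4A1 and 7 others. The others were PRO0471 (1.85), the unnamed A_33_P3298612 (1.60), HMBOX1, a homeobox gene (1.21), AK127601 (1.11), FLJ35424 (1.06), ABO, a blood group glycosyltransferase (0.99), and ZNF469 (0.95), with FDRs of 0.303 or more. PRO0471 read -3.96, -1.85, -4.24, -1.98 and -1.87 in CTL and -0.91, -1.77, -1.05, -0.24 and -0.68 in DBP, below the median probe on all arrays. In H1299shRAD9 DBP 6 of the 8 had a value below 0, where the median of all features was 0.03. The 8 were picked for rises on the H1299 arrays, so this count is a description. The difference between lines was called for none of the 8 (lowest FDR 0.570).

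Whether DBP differed from other groups was tested directly. Against DBN, the direct dishes of negative bystanders, 0 of 12206 features were called by limma without pairing, with 59 at an unadjusted p under 0.05. For the 7 features, chosen on these same DBP arrays, the difference DBP minus DBN lay between 0.04 and 0.41. Across all 12206 features its median was 0.10. Its 95% intervals for the 7 together reached from -0.54 to 0.95. The DBN arrays share the CTL arrays with DBP, and against them the 7 features stood between -1.73 and -1.08. The median of G2/M genes was -0.61 in DBN and that of spindle genes -0.63, beside -0.10 for all features. In DBP these medians were -0.51, -0.50 and 0.02. The mean of G2/M genes on single arrays, relative to the controls, ranged from -1.32 to -0.29 in DBN and from -0.67 to -0.39 in DBP.

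Against BP, the bystander dishes that faced them, 0 features were called in the paired fit (lowest FDR 0.236), with 740 at an unadjusted p under 0.05. The 7 features were lower in DBP than in BP by between 0.56 and 1.15. They were chosen for low values on these same DBP arrays, so these differences are a description. Against the shared controls, BP stood between -0.47 and -0.05 and BN between -0.33 and 0.02.

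In H1299shRAD9 cells the same 7 features stood between -1.58 and -0.61 in DBP against their own 5 controls. The test of the difference between the lines called 0 of 12206 features (lowest FDR 0.570), with 1054 at an unadjusted p under 0.05. For AURKA the change in H1299 was lower than in H1299shRAD9 by 0.42 (95% interval -0.77 to -0.07), and for KIF20A by 0.42 (-0.73 to -0.10), at unadjusted p of 0.0222 and 0.0139. For BORA the difference was -0.20 (-0.49 to 0.09) and for CENPA -0.17 (-0.54 to 0.20). The unnamed probe A_33_P3404221 went the other way, at 0.26 (-0.27 to 0.80). The 7 were chosen for low values on these same H1299 DBP arrays, so these intervals and p-values are a description. The median of G2/M genes in H1299shRAD9 DBP was -0.24 and that of spindle genes -0.27, beside -0.51 and -0.50 in H1299.

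**Figure D5:**
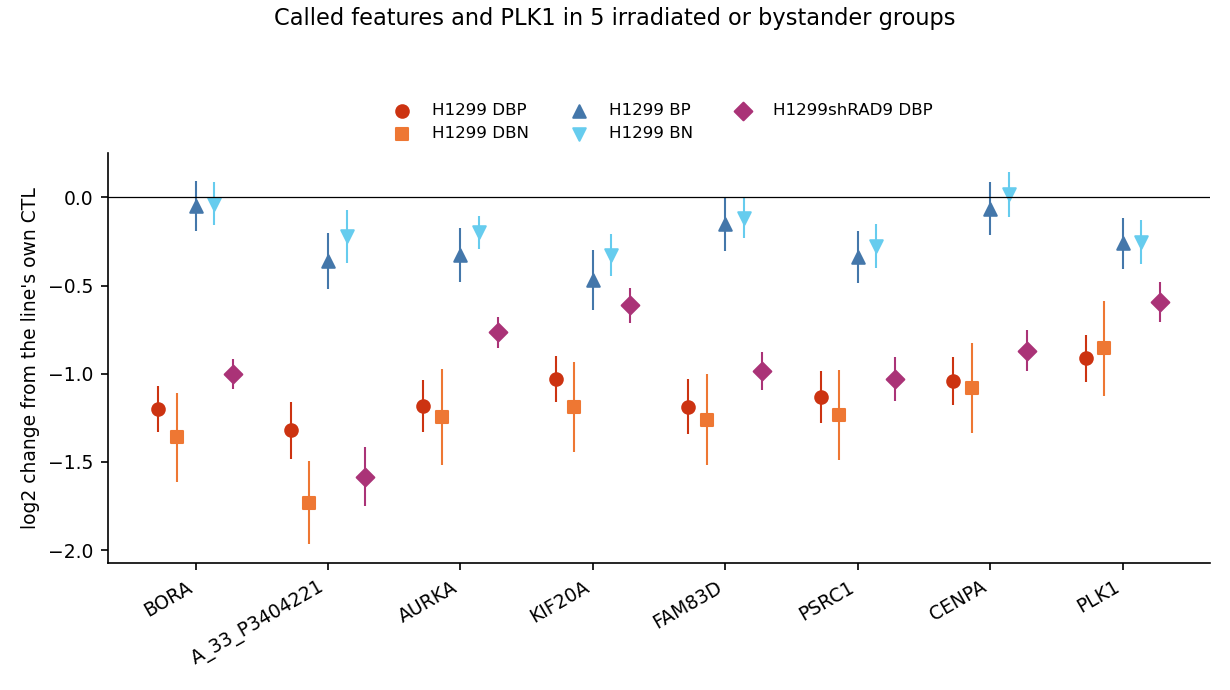
Log2 change of the 7 called features and of PLK1 from the controls of the line, in H1299 DBP, DBN, BP and BN and in H1299shRAD9 DBP (points, with the SE of each fit of all features above background as a line). The 4 H1299 groups share the same 5 controls. Both direct groups of H1299 lie at -0.86 or below in every feature, and the bystander groups lie between -0.47 and 0.02.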

How the data were processed

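The deposited files held Agilent Feature Extraction processed intensities, for which the software had subtracted a spatially fitted background, per the file headers. The authors also deposited a log2 table of 9502 features, normalized to the median per their methods, which served as an alternative. They followed log2 of the processed intensity of their own array (correlation at least 0.999), with column medians of 8.86 to 9.30 that were not set to one value. What fixed their centring is not given in the sources used here.

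Here, log2 of the processed intensity was averaged over unflagged spots (43118 spots, 34127 probes), and the array median was subtracted. Features not well above background on 25% or more of the 50 arrays were left out, which kept 20100, as were those without a 1.3-fold difference from their median on 20% of the arrays, which kept 12206. Positions are those of the array annotation (hg19). Promoters came from RefSeq (GRCh38.p14). Precision is limited by 5 arrays a group.

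Groups were compared with limma 3.58.1 in R 4.3.3, at p under 0.006 and FDR under 10%, with the replicate number as a block (cell line and replicate in the test between lines), except between DBP and DBN. Same-numbered CTL and DBP arrays correlated at 0.27 to 0.67 after group means were removed, and other pairs at a mean of -0.09. In 4 of 5 pairs both arrays shared a slide, so slide and pair cannot be told apart there.

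Named were every called feature, the 8 largest rises and falls at p under 0.006 in all 5 pairs, the 3 genes with the smallest p in each list, and 29 genes of the study's subject. One gene that this rule names is not reported here. Genes named outside that rule (AURKAPS1, CDCA8, CENPE, MKI67, WEE1, CCNA2 and second features) were chosen after their values were seen. A gene is given by its brightest feature, except where a rule chose another. The comparison and the lists were chosen with earlier results of these data known. The code was tested on simulated data with 200 changed features. Alternatives are named in the closing section. Arrays whose levels stood apart were found with the Dixon ratio (0.71 for 5 arrays).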

Additional observations from a re-analysis of the deposited data

Results flagged for a closer look

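In 20 of 184 groups of 5 values examined (10.9%) 1 array lay apart from the other 4 by the Dixon ratio, which chance alone does in about 1 in 20 groups. Of the 15 in DBP, 6 came from replicate 1 and 7 from replicate 2, the arrays with the lowest 5′ to 3′ index. The part of RNA quality in these values was not tested.

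Among the called features, BORA was high in CTL replicate 2 (4.19, others at most 3.85), FAM83D low in CTL replicate 2 (5.47, others at least 5.89) and CENPA high in DBP replicate 2 (4.76, others at most 4.33).

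DBP replicate 1 was low in RAD51AP1 (3.06), LIG4 (-2.76), ANGPTL4 (4.34) and HIST1H3D (6.21) and high in SP1 (4.96). DBP replicate 2 was low in HUS1B (-3.26) and high in NR4A3 (1.15), IFIT1 (3.25), RELB (9.25), ATF3 (5.57) and DDIT3 (5.85). DDIT3 was also high in CTL replicate 2 (6.81), so that the same replicate number stood apart in both groups. DBP replicate 3 was low in ABO (-1.45) and high in FASN (7.70), and CTL replicate 1 was high in ZNF469 (2.69).

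The median processed intensity of CTL replicate 3 was 514, with 245 to 294 on the other CTL arrays. In DBP replicate 1, 68.9% of probes were well above background, with 63.3% to 63.9% on the others.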

How the results depend on the processing

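The count of 7 calls in DBP against CTL depended on the setting. It was 0 with 75th percentile scaling, with the slide as a fixed block and with the 5′ to 3′ index as a covariate, 1 without replicates 1 and 2 and with the 4-of-5-arrays background filter, 2 with quantile normalization and with the positive and significant signal filter, 25 with the slide as a random block, 26 with normexp and 28 with all 5 groups in one fit. The calls under the background filters were SHISA3 and SNORA66, none of the 7. Leaving out 1 replicate gave 0 to 2. It was 7 without the replicate block, with the authors' values, without the 1.3-fold criterion and with the random-variance test. Without the replicate block AURKAPS1 (FDR 0.0597) was called and KIF20A (FDR 0.295) was not. The other settings with this count called the same 7. Against BP the count of 0 became 6 with normexp, 3 with all 5 groups and 6 with the slide as a random block. Against DBN and between the lines it was 0 in every setting run, with or without the replicate block. The settings without replicates 1 and 2 and with the index were chosen after seeing the data. With normexp 18 of 21 medians, 20 lists and all features, moved by more than the spread between pairs, that of all features from 0.02 to -0.20. The cause of these differences was not tested.

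Some small log2 changes turned sign. With normexp these were FASN (-0.052), RPS10 (-0.0065), RPS15 (-0.024), RAD9A (-0.12), CHAC1 (-0.0022) and ATF3 (-0.24). ATF3 was at -0.000845 with the authors' values. Without replicates 1 and 2 these were WDR76 (0.072), RAD51AP1 (0.022), RAD9A (-0.068), CDK1 (0.062), DDIT3 (0.21), FOS (0.15) and SMC1A (0.18), and with the index DDIT3 (0.090), FOS (0.067) and SMC1A (0.17). Leaving out 1 replicate gave ranges of -0.23 to 0.043 for CDK1, -0.24 to 0.048 for CHEK1, -0.15 to 0.17 for ATF3, -0.36 to 0.029 for DDIT3, -0.12 to 0.037 for FOS, -0.42 to 0.17 for SMC1A, -0.54 to -0.076 for WDR76 and -0.63 to -0.054 for RAD51AP1. Probes near background have the least precise levels.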
